A study of Nothobranchius furzeri with 10 samples.

Results

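In the brain of the turquoise killifish Nothobranchius furzeri, 200 well-expressed genes were chosen by how strongly their transcript levels differed between libraries of the same treatment group. A gene was eligible when it had at least 1 CPM (counts per 1000000 counts of its library) in all 10 libraries and a mean of at least 10 CPM, with the 200 genes of highest mean in the control group left out. Of 26739 genes counted, 16788 met the first condition, 12115 met both, and 11915 remained once the most abundant genes were left out. For each of these, log2(CPM + 0.5) was taken, the mean of its own group was subtracted, and the within-group SD was computed with 8 degrees of freedom. The 200 genes with the highest SD, 1.68% of those eligible, are called the members below.

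The samples were whole brains of males of the strain MZM-0410p, a laboratory line derived from wild fish, all aged 22 weeks. The control group of 5 received a scrambled oligonucleotide, for which the labels give no dose, and the other 5 samples received antagomiR-29a at 100 pmol. Nothing in the labels says whether each library was made from 1 animal or from several, nor how and when the oligonucleotides were given. The library totals ran from 18489730 to 24486735 counts.

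An antagomir is a modified antisense oligonucleotide that binds a mature microRNA and keeps it from its target transcripts. MicroRNAs of the miR-29 family become more abundant in the ageing killifish brain. In mammals they restrain transcripts for extracellular matrix proteins, and in the killifish they act on one for a regulator of cellular iron. A whole-brain library pools neurons, glia, vessel cells and the lining of the ventricles from every region. Bulk RNA measurements do not separate fewer cells of a type from less RNA per cell. The deposited tables do not pair the gene identifiers with names, and a RefSeq table of 38438 killifish genes matched 0 of them. The products of the members are therefore not named, and the tissue label could not be set against marker genes.

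The members' within-group SD had a median of 0.77 log2 units and ranged from 0.61 to 4.28, where the median over all eligible genes was 0.12. An SD above 1 log2 unit was found for 49 members. These values chose the members and are given as a description. In the median member, the highest control library had 3.60 times the CPM of the lowest control library, and the highest antagomiR-29a library had 3.80 times that of the lowest. Over all eligible genes the median ratio was 1.22 in either group. For 47 members the ratio of highest to lowest library exceeded 4 in both groups.

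The limit fell in the upper tail of the distribution, drawn in the plot of spread against level, and no gap set it off. The last members inside it were Nfu_g_1_019960, with an SD of 0.609, and Nfu_g_1_022803, with an SD of 0.607. The first genes outside it were Nfu_g_1_008869, with an SD of 0.607, and Nfu_g_1_005470, with an SD of 0.605. Genes on either side of the limit thus had nearly equal spread.

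**Figure D1:**
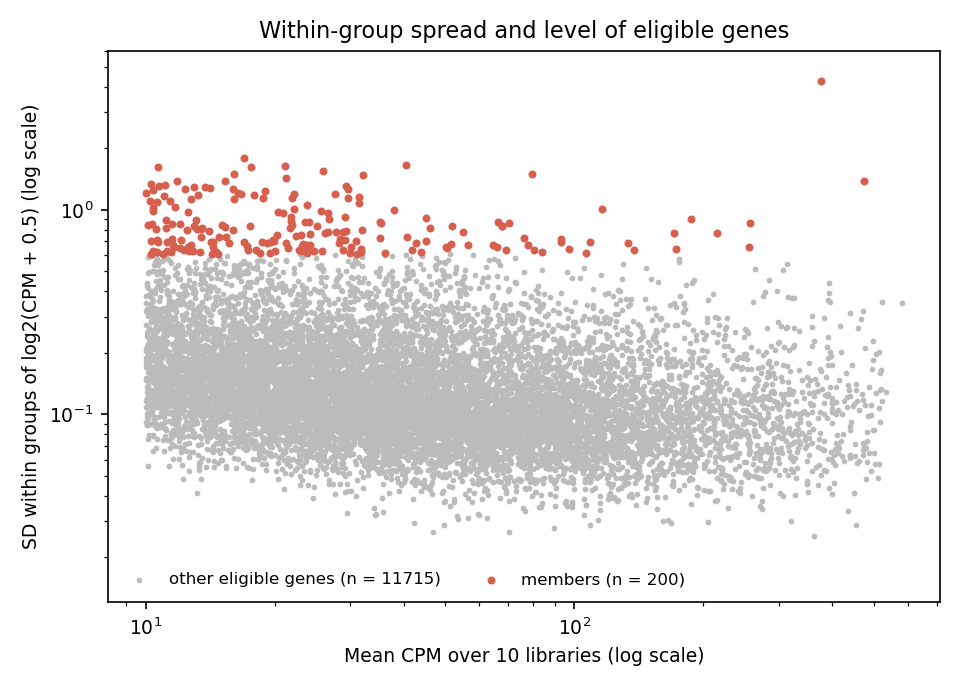
Within-group SD of log2(CPM + 0.5) against mean CPM over the 10 libraries, both on log scales, for the 200 members (red) and the 11715 other eligible genes (grey). The members lie above an SD of 0.61 log2 units, most of them at low CPM, and 1 member stands at 4.28.

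Counting error made up a small part of the members' spread, which is in part fixed by their choice for high spread. The median member's counting error, computed from its counts as Poisson variables, was 0.08 log2 units, or 0.93% of its within-group variance, and the highest share among members was 3.20%. Across eligible genes the median share was 16.9%. The members' counts per library ran from 22 to 16739. These shares cover counting error only, since the reads carry no molecular identifiers that the labels mention.

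The members were less abundant than the eligible genes as a whole. Their mean level had a median of 21.4 CPM, against 37.6 CPM over all eligible genes. Scaled to gene length, the median was 6.63 RPKM (reads per kilobase of gene and per 1000000 counts, computed with each library's own total) against 13.2 RPKM. The lengths implied by the deposited tables had a median of 3402.5 bases for members and 3295 bases for eligible genes, so the members were close to the other genes in length. Together the members held 0.532% to 0.879% of the counts in the control libraries and 0.579% to 0.934% in the antagomiR-29a libraries.

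The member with the largest spread, Nfu_g_1_014206, took widely separated levels. The 5 control libraries, in the order of their replicate numbers here and below, had 1.34, 1.11, 1.69, 839 and 680 CPM. The antagomiR-29a libraries had 736, 541, 1.19, 688 and 280 CPM. It was thus near the lower limit of the rule in control replicates 1, 2 and 3 and in antagomiR-29a replicate 3, and at 280 to 839 CPM in the other 6 libraries, with none in between. The gap between these levels was 7.0 log2 units, the widest among members. Its implied length was 615 bases, and its mean of 613 RPKM was the highest level per length of the members. The groups overlapped over nearly the whole range, at 305 ± 419 CPM (SD, n = 5) for the controls and 449 ± 307 CPM (SD, n = 5) after antagomiR-29a.

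A further 5 members varied together with Nfu_g_1_014206. Sets of such members were formed by average linkage on 1 minus Pearson's r of the within-group deviations, cut at a distance of 0.3. In 4 of these 6 genes the 4 lowest libraries were the same ones, control replicates 1, 2 and 3 and antagomiR-29a replicate 3. Of these, Nfu_g_1_020202, named after its values were seen, had 1.39, 1.8, 1.26, 16.2 and 15.3 CPM across the controls. Across the antagomiR-29a libraries it had 15.1, 8.17, 1.35, 34.2 and 12.2 CPM. Its high and low libraries were those of Nfu_g_1_014206, but antagomiR-29a replicate 4 was its highest, where control replicate 4 was highest for Nfu_g_1_014206.

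The second gene by spread, Nfu_g_1_020348, divided the libraries differently. It had 1.44, 28.9, 2.32, 31.9 and 25.9 CPM across the controls, then 17.0, 18.9, 20.5, 1.28 and 21.6 CPM across the antagomiR-29a libraries. Control replicates 1 and 3 and antagomiR-29a replicate 4 were low, and the other 7 libraries lay between 17.0 and 31.9 CPM. The most abundant member, Nfu_g_1_007783, fell into the same set of 4 genes. Its CPM were 253, 708, 216, 428 and 460 across the controls, then 706, 469, 724, 38.6 and 727 across the antagomiR-29a libraries. In all 4 genes the same 3 libraries were the lowest, but in Nfu_g_1_007783 antagomiR-29a replicate 4 was far below control replicates 1 and 3, and it held 68.5% of that gene's within-group sum of squares.

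For some other members a single library made most of the spread. It held 69.3% of the within-group sum of squares in Nfu_g_1_012737 and 75.2% in Nfu_g_1_021952. Nfu_g_1_012737 had 304 CPM in control replicate 4, against 7.58 to 15.1 CPM in the other control libraries and 5.02 to 21.7 CPM after antagomiR-29a. Its fitted log2 fold change, antagomiR-29a minus control, was -2.52 with SE 1.13 (edgeR adjusted p = 0.844), and 0.26 without that library. Control replicate 4 was the highest of all 10 libraries in each of the 6 genes of its set. Nfu_g_1_021952, named after its values were seen, had 80.6 CPM in antagomiR-29a replicate 4 and between 2.62 and 5.64 CPM in the other 9 libraries. In its set of 5 genes, antagomiR-29a replicate 4 was the highest antagomiR-29a library in all 5 and the highest of all libraries in 4. A set of 7 with Nfu_g_1_013791 had control replicate 5 as the highest control library and antagomiR-29a replicate 3 as the highest antagomiR-29a library in all 7 genes. In Nfu_g_1_013791 the largest share of 1 library was 48.3%. Over all members, 1 library held over 50% of the within-group sum of squares in 21 genes, or 10.5%, where 12.2% of eligible genes did.

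**Figure D2:**
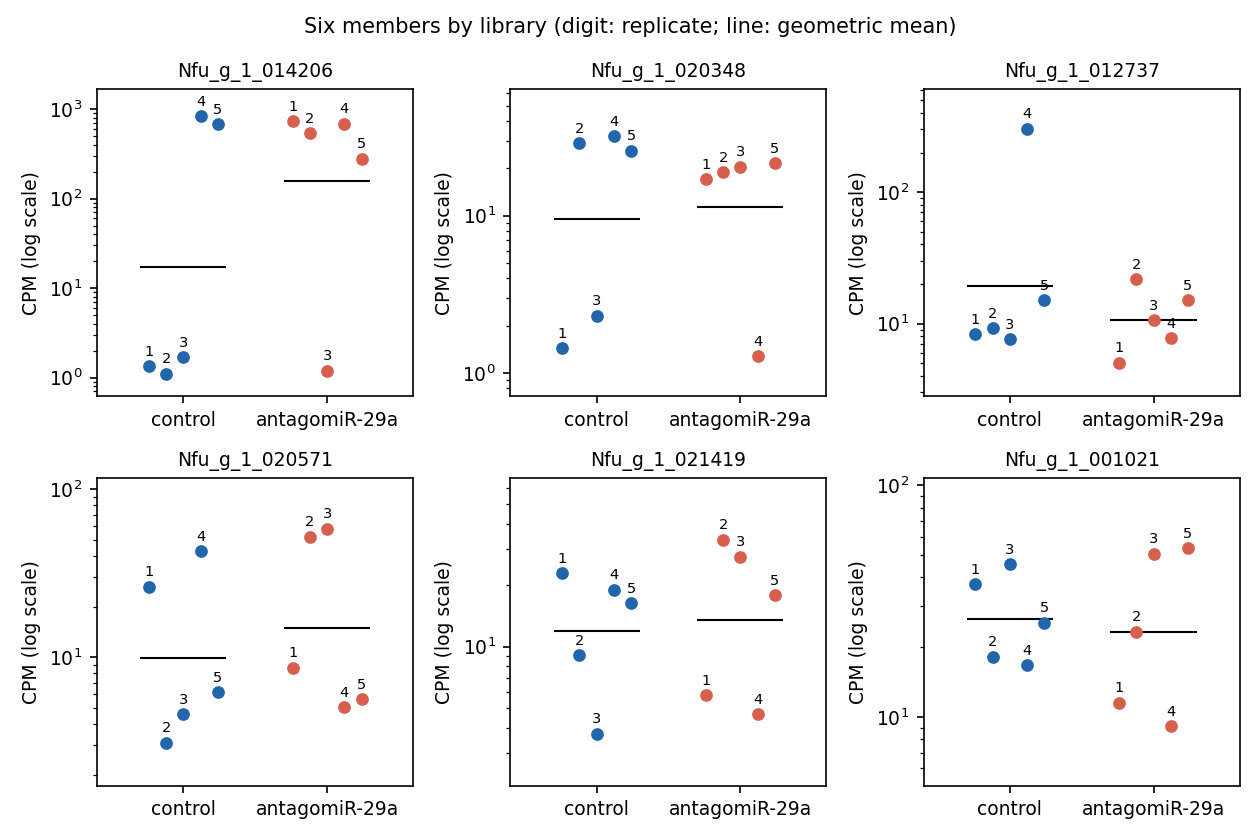
CPM on a log scale in each library (points, digit giving the replicate) for 6 members in the control (blue) and antagomiR-29a (red) groups, with the geometric mean of each group as a line. Nfu_g_1_014206 takes either about 1 CPM or 280 to 839 CPM, while Nfu_g_1_021419 and Nfu_g_1_001021 take graded levels, and the groups overlap in each of the 6 genes.

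The largest pattern was a graded one shared by 80 members, 40.0% of the total. The median correlation between their within-group deviations was 0.96 over the 10 libraries. The median CPM of the 80 genes was 26.7, 15.5, 6.16, 25.5 and 22.3 across the controls, then 10.2, 35.1, 29.6, 7.68 and 24.1 across the antagomiR-29a libraries. Control replicate 3 was the lowest control library in 79 of the 80 genes, and antagomiR-29a replicates 1 and 4 were the lowest of their group in 78. At the other end, control replicate 1 was the highest control library in 59 genes and antagomiR-29a replicate 2 the highest antagomiR-29a library in 70. Between antagomiR-29a replicates 2 and 4 the median gene of the set differed 3.80-fold, with a range of 2.25-fold to 26-fold. The set's share of counts was lowest in control replicate 3, at 0.0859%, and highest at 0.383%, which was antagomiR-29a replicate 2.

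The member closest to the others of this set, by mean correlation, was Nfu_g_1_021419. Its CPM were 22.9, 9.10, 3.74, 19 and 16.3 across the controls, then 5.77, 33.6, 27.6, 4.67 and 17.9 across the antagomiR-29a libraries. The order of libraries was that of the whole set, with control replicate 2 between the low and the high libraries. Nfu_g_1_020571, 1 of the 4 members of highest spread, was placed in the same set but tracked it less closely. It had 26.2, 3.10, 4.58, 42.5 and 6.17 CPM across the controls, then 8.65, 52.0, 57.9, 5.02 and 5.6 CPM across the antagomiR-29a libraries, so that control replicates 2 and 5 and antagomiR-29a replicate 5 were low in this gene, while their mean deviations in the set were -0.25, 0.30 and 0.32 log2 units.

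Some genes outside the members also followed the set of 80. Their smaller amplitude is fixed by the limit on SD that chose the members. Of the 11715 other eligible genes, 385, or 3.29%, had a correlation above 0.9 with the set's mean deviation over the 10 libraries, with a median within-group SD of 0.28 against 0.12 for all others. A correlation below -0.9 was found for 32 of them, with a median SD of 0.10, and for 0 members. The 385 genes had a median length of 4765 bases. They shared the libraries and the scaling with the set, so these numbers describe these libraries.

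Library measures stood beside this pattern as follows. Control replicate 3 had a total of 18995165 counts, antagomiR-29a replicates 1 and 4 had 21501725 and 20323879, and antagomiR-29a replicate 2 had 22166156. The shallowest library, antagomiR-29a replicate 3 with 18489730 counts, was high in the set. Over all eligible genes, Spearman's correlation between a gene's deviation and its implied length was 0.23 for antagomiR-29a replicate 2 and 0.10 for control replicate 1, the highest libraries of their groups in the set by mean deviation. It was -0.17 for antagomiR-29a replicate 4, -0.13 for control replicate 3 and -0.07 for antagomiR-29a replicate 1, the libraries lowest in it, and between 0.005 and 0.03 in the other 5, among them antagomiR-29a replicate 3, which was high in the set. The set's genes themselves had a median length of 3336 bases, against 3295 bases for eligible genes and 4765 bases for the 385 genes that followed the set. When each library's trend on length was removed, 81 members formed the largest set. The part of depth and length in the pattern was not tested.

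A second set held 12 members with another order of libraries. Its representative by mean correlation, Nfu_g_1_001021, had 37.5, 18.2, 45.5, 16.7 and 25.5 CPM across the controls, then 11.5, 23.4, 50.7, 9.10 and 53.6 CPM across the antagomiR-29a libraries. AntagomiR-29a replicates 1 and 4 were low in this set as in the set of 80, while control replicate 3, the lowest control library for the set of 80, had the highest mean deviation of the control libraries here at 0.68. The genes of this set were longer, with a median of 5635 bases. Only 16 other eligible genes, or 0.137%, had a correlation above 0.9 with its mean deviation.

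The remaining members were scattered over smaller patterns. Sets of 5 to 9 genes numbered 6 and held 37 members, sets of 2 to 4 genes numbered 21 and held 53, and 18 members joined no other. Of all pairs of members, 17.1% had a correlation above 0.7 and 0.980% one below -0.7, where 2.99% and 2.49% of the pairs of eligible genes did. Pairs of members thus had strong positive correlations more often than strong negative ones. All pairs include those within the set of 80, whose median correlation was 0.96, and no share was computed without that set. The heat map of deviations shows the large set as a block, with most of the smaller sets marked by 1 or a few libraries.

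**Figure D3:**
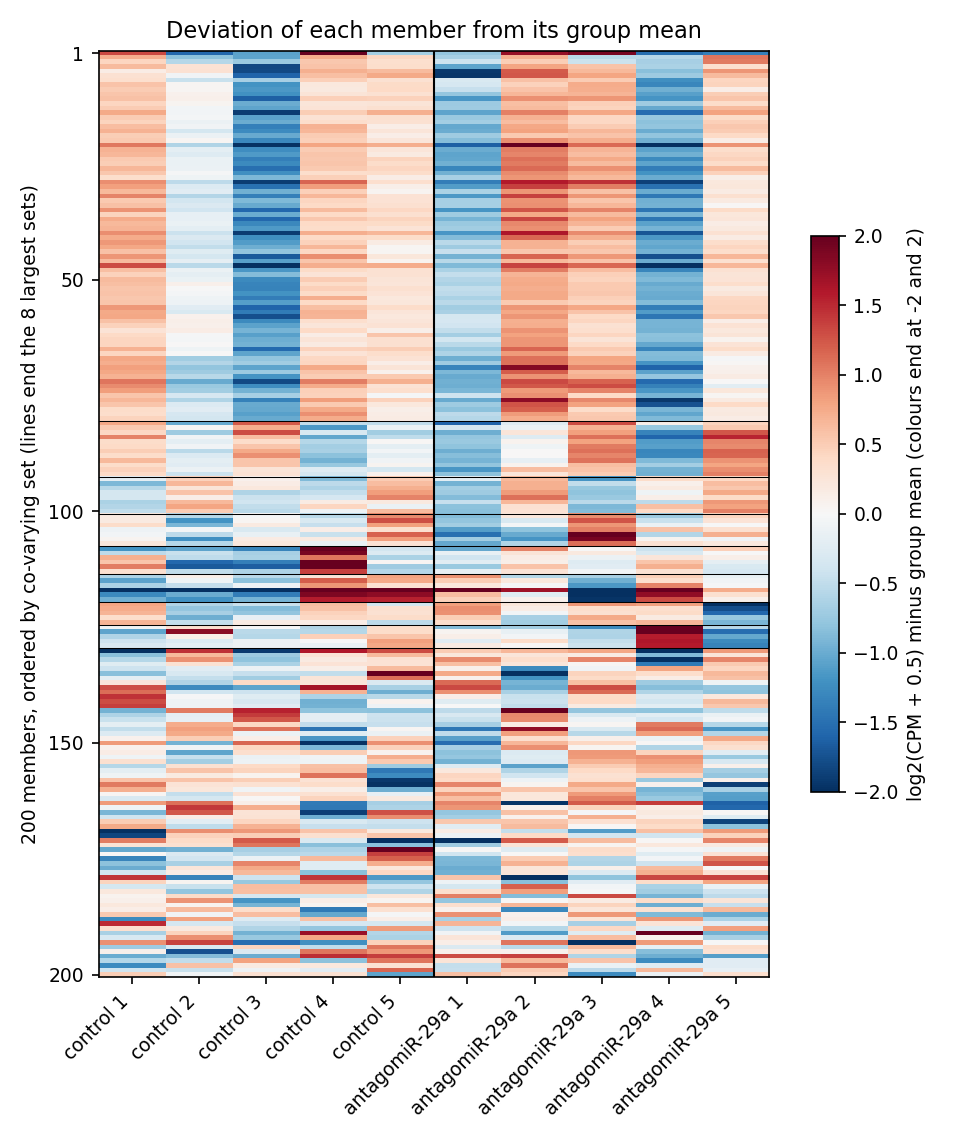
Deviation of log2(CPM + 0.5) from the group mean (red above, blue below) for the 200 members in rows and the 10 libraries in columns, with lines that end the 8 largest sets. The top 80 rows are low in control 3, antagomiR-29a 1 and antagomiR-29a 4, and the rows below hold smaller sets with other libraries high or low.

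**Figure D4:**
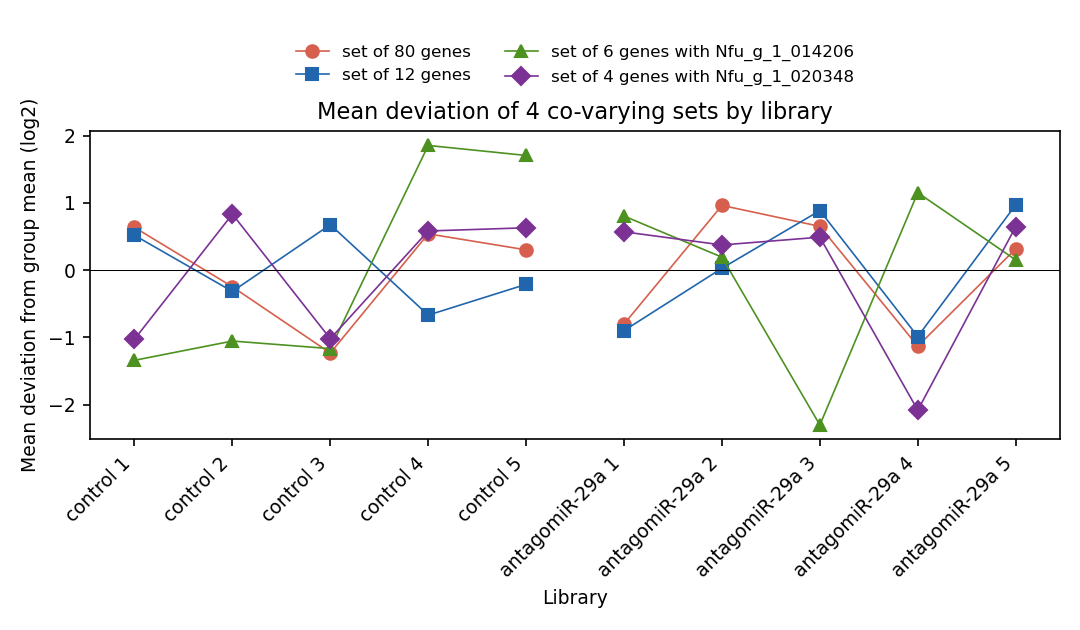
Mean deviation from the group mean, in log2 units, of 4 sets of members in each library, with lines joining libraries of 1 group only to guide the eye. The set of 80 is lowest at -1.23 (control 3) and highest at 0.96 (antagomiR-29a 2), and the set of 6 with Nfu_g_1_014206 spans -2.30 (antagomiR-29a 3) to 1.85 (control 4).

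Whether a gene that varied in 1 group also varied in the other was read from libraries that had not ranked it. Eligibility itself used all 10 libraries. When 200 genes were selected on the 5 control libraries alone, 117 of them, or 58.5%, were also among the 200 highest in the antagomiR-29a libraries, where 1.68% of eligible genes are in such a list. Their median SD in the antagomiR-29a libraries was 0.73 log2 units, against 0.12 for all eligible genes, and 4 of the 200 lay below that median. With 200 genes selected on the antagomiR-29a libraries, the median SD in the control libraries was 0.65, against 0.11, and the shared genes were the same 117. All 117 were members, which the rule nearly fixes for genes with a high SD in both groups. The other members were in the control list alone (35) or in the antagomiR-29a list alone (48). The groups share no library, but they share the tissue, strain, age and processing. The values over all eligible genes were not matched for expression level, and members were less abundant.

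Co-variation also recurred between groups. Among the 200 genes selected on the control libraries, 2230 of 19900 pairs had a correlation above 0.9 there. In the antagomiR-29a libraries these pairs had a median correlation of 0.97, and 75.8% of them exceeded 0.9, against a median of 0.16 and 11.7% over all pairs. In the opposite direction, 3750 pairs selected in the antagomiR-29a libraries had a median of 0.95 in the control libraries. Each correlation rests on 5 libraries, and pairs share genes, so the shares are descriptions. How many of these pairs lay within the set of 80 was not counted, so 1 shared pattern may supply many of them.

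**Figure D5:**
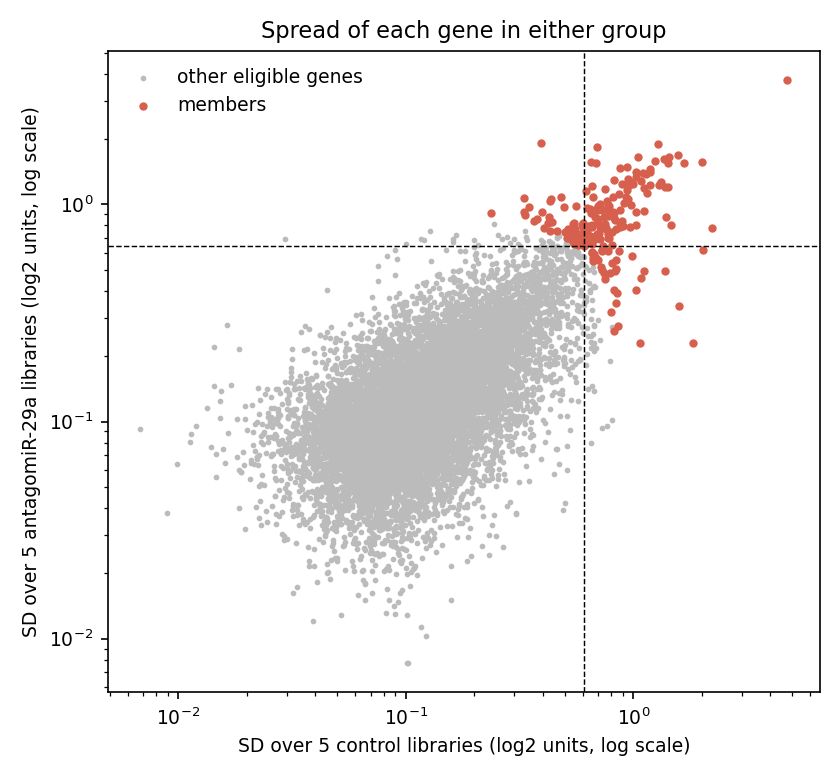
SD of log2(CPM + 0.5) over the 5 control libraries against that over the 5 antagomiR-29a libraries for each eligible gene, on log scales, with members in red and dashed lines at the limit of the 200 highest genes in either group. The 117 members beyond both lines sit in the upper right, 35 members only beyond the vertical line and 48 only beyond the horizontal one.

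The SD was larger in the antagomiR-29a group for 136 members and in the control group for 64. The medians were 0.80 and 0.73 log2 units. Over all eligible genes the control group had the larger SD in 48.7%. Since 80 members form 1 set that moves with a few libraries, the members are not separate observations of this difference, and it was not tested.

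The design's question is which brain transcripts change when antagomiR-29a is given in place of the scrambled oligonucleotide. The members were tested in a fit over all 18976 genes that passed the count filter, and all 200 members did. The ranking by SD did not use the difference of the group means, though eligibility used levels, among them the control mean. The ranking did use the spread that the test divides by, so few calls among members are built into the choice. None of the 200 members was called (quasi-likelihood test of edgeR, lowest adjusted p = 0.721), where 0.0474% of all genes tested were, 9 genes in number. Leaving out 1 library at a time brought the 9 to between 0 and 4, except without antagomiR-29a replicate 2, where 8 were called. DESeq2 also called 0 of the 196 members to which it gave an adjusted p, where it called 0.379% of its genes. The 4 members without an adjusted p each had 69.3% to 78.0% of the within-group sum of squares in 1 library. Nfu_g_1_012737 and Nfu_g_1_021952 were among these 4. An unadjusted edgeR p under 0.05 was found for 12 members, or 6.0%, 8 higher and 4 lower in the antagomiR-29a group, where 5.91% of all genes had one. In each of the 4 lower ones, 1 control library stood far above every other library. Single high libraries were not counted among the 8 higher ones. By DESeq2 10 members had an unadjusted p under 0.05, where 1151 of all genes did. By limma-voom with quality weights for the libraries, which called 8 of all genes and 0 members, 5 members had one, where 1208 of all genes did. For DESeq2 and limma-voom these counts were not turned into shares.

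In none of the 200 members did the groups separate, while 1.38% of eligible genes had all libraries of 1 group above all of the other. Of the 9 genes called in the whole fit, 8 were eligible, and the highest place of any of these in the ranking by within-group SD was 2388. Large spread makes groups overlap and enters the test, so the overlap and these ranks are in part built into the choice. Members had a median log2 fold change, antagomiR-29a minus control, of 0.09 (interquartile range -0.07 to 0.34), against 0.003 (-0.07 to 0.09) over all genes tested. Their median SE was 0.40 log2 units, against 0.11. Fitted fold changes beyond 1 log2 unit were found for 9 of the 200 members, 6 higher and 3 lower, and for 102 of the 18976 genes tested. Fitted fold changes scatter more where the spread is larger, so nothing is read from the numbers beyond 1 log2 unit. By sign, 130 members were fitted higher in the antagomiR-29a group and 70 lower. In the set of 80, 62 were higher and 18 lower. The share by sign over all genes was not counted, and the sign can depend on the scale. In the set with Nfu_g_1_012737 the median fitted log2 fold change was -0.25, but mean log2(CPM + 0.5) differed by 0.21. In the set with Nfu_g_1_021952 these values were 0.08 and -0.21. In the other sets of at least 3 members the signs were alike. Members that vary together are not separate observations, and the shift of the members' median was not tested.

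The member with the lowest p among those higher in the antagomiR-29a group was Nfu_g_1_001191. It had 7.09, 8.92, 5.21, 5.19 and 8.0 CPM across the controls, then 29.3, 7.67, 36.6, 7.33 and 9.86 CPM across the antagomiR-29a libraries. AntagomiR-29a replicates 1 and 3 were high, replicate 5 was just above the highest control library, and replicates 2 and 4 lay within the control range. Its log2 fold change was 1.39, SE 0.46 (edgeR adjusted p = 0.721). The next, Nfu_g_1_019655, had a mean of 95.0 ± 31.6 CPM (SD, n = 5) for the controls and 180 ± 83.8 CPM (SD, n = 5) after antagomiR-29a. The log2 fold change was 0.92, SE 0.33 (edgeR adjusted p = 0.768), and it was highest in antagomiR-29a replicates 3 and 4, at 304 and 225 CPM.

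On the lower side, the 2 members with the lowest p were neighbours in the table and varied together, with a within-group correlation of 0.93. Nfu_g_1_007654 had 761, 274, 249, 151 and 271 CPM across the controls, then 166, 118, 188, 144 and 241 CPM across the antagomiR-29a libraries. Nfu_g_1_007641 had 301, 109, 92.8, 71.5 and 75.1 CPM across the controls, then 69.4, 46.2, 83.1, 51.9 and 73.5 CPM across the antagomiR-29a libraries. Control replicate 1 was high in both genes. Of the other 4 control libraries, 3 lay above every antagomiR-29a library for Nfu_g_1_007654 and 2 did for Nfu_g_1_007641, while control replicate 4 lay within the antagomiR-29a range for both. The log2 fold changes were -0.99 and -1.0, with SEs of 0.37 and 0.38 (edgeR adjusted p = 0.798 for each). Without control replicate 1 they were -0.47 and -0.43.

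Means of co-varying sets keep the spread that chose the members, so small group differences beside that spread are in part built in. In 16 of the 18 sets of at least 3 members, the group means of the set lay closer together than 1 SD within either group. The other 2 were the set of 3 with Nfu_g_1_007654 and Nfu_g_1_007641, at 6.92 ± 0.83 (SD, n = 5) for the controls and 6.23 ± 0.39 (SD, n = 5) after antagomiR-29a on the scale of mean log2(CPM + 0.5), and the set of 3 with Nfu_g_1_019655, at 4.55 ± 0.44 (SD, n = 5) and 5.23 ± 0.73 (SD, n = 5). Each held 2 genes with an unadjusted p under 0.05, and the lowest edgeR adjusted p-values were 0.798 and 0.768. The mean log2(CPM + 0.5) of the set of 80 was 4.25 ± 0.77 (SD, n = 5) for the controls and 4.34 ± 0.92 (SD, n = 5) after antagomiR-29a, and 0 of its genes had an unadjusted p under 0.05. For the set of 12 the means were 4.82 ± 0.57 and 4.85 ± 0.94, also with 0 such genes. The set of 7 with Nfu_g_1_013791 had means of 3.87 ± 0.56 and 4.38 ± 0.88. In it 3 genes had an unadjusted p under 0.05, with a lowest edgeR adjusted p of 0.803. Without antagomiR-29a replicate 3, the log2 fold change of Nfu_g_1_013791 was 0.75, where it was 1.83 with all libraries. Over all genes tested, 5.91% had an unadjusted edgeR p under 0.05. Genes of 1 set were grouped because they vary together, so they are not separate observations. Nfu_g_1_014206 had a fitted log2 fold change, antagomiR-29a minus control, of 0.56, which was smaller than its SE of 1.70 (edgeR adjusted p = 0.994).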

How the data were processed

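RNA from 10 brain samples was sequenced after library preparation with a TruSeq RNA kit, per the labels' protocols. Tools named in the submitters' processing notes are STAR 2.4.1d, featureCounts 1.4.6-p4 and bcl2fastq 1.8.4. For the genome build, annotation and strand setting, the entry is: not given in the sources used here. Deposited counts are raw whole numbers per gene. The deposited RPKM table, made by the authors from the same genes, was used only to derive gene lengths. Of its 119150 entries for eligible genes, 99.9% were given within 0.0005 when each count was divided by a length for its gene and by the 10 library totals recycled down the columns, against 9.96% with each library's own total. Columns were matched to samples by title, and replicates were numbered in accession order. Since no label ties a library to its own animal, a p-value reflects spread among these libraries alone, part of which may be technical. How reads shared by similar or overlapping genes were assigned is not known, so values of such genes are uncertain.

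The members, sets and tests were chosen with earlier results of these data known. CPM used column sums. The test of group differences was that of edgeR 4.0.16 under R 4.3.3 (filterByExpr at its count minimum of 10 and total minimum of 15, TMM scaling, robust quasi-likelihood fit, group as the only term, Benjamini-Hochberg over all genes, limit 0.05). SEs are the log2 fold change divided by the square root of F. Alternatives used DESeq2 1.42.0 and limma 3.58.1 (voom with quality weights). The scripts were tested on simulated data. Other steps used Python 3.11.15, scipy 1.17.1 and matplotlib 3.10.9. Genes were named by a rule: the 4 members of highest SD, the 2 of highest mean CPM, the member of highest mean correlation in each set of at least 10, the 2 of lowest p in each direction, and the genes beside the limit. Nfu_g_1_020202, Nfu_g_1_021952, Nfu_g_1_013791, Nfu_g_1_020700 and Nfu_g_1_020705 were added after their values were seen. The planned marker lists were not used, for lack of gene names.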

Additional observations from a re-analysis of the deposited data

Results flagged for a closer look

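The named members except Nfu_g_1_020202, the 2 large sets and the members' share of counts were examined for outlying libraries. In each of 40 groups of 5 libraries, a library far from the other 4 was sought (gap over range above 0.71, Dixon's limit for 5). There were 8 such libraries, where chance gives about 1 in 20 groups. Members were chosen for high spread, and Nfu_g_1_021952 and Nfu_g_1_013791 were named because 1 library was high, so the number is no result.

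AntagomiR-29a replicate 4 stood at 1.28 CPM for Nfu_g_1_020348, below the 17.0 to 21.6 CPM of its group, and at 80.6 CPM for Nfu_g_1_021952, above 2.70 to 4.82 CPM. Control replicate 4 stood at 304 CPM for Nfu_g_1_012737, above 7.58 to 15.1 CPM. Control replicate 1 stood at 761 CPM for Nfu_g_1_007654, above 151 to 274 CPM, and at 301 CPM for Nfu_g_1_007641, above 71.5 to 109 CPM. Control replicate 5 stood at 26.5 CPM for Nfu_g_1_019960, above 8.36 to 10.8 CPM, and at 25 CPM for Nfu_g_1_013791, above 7.35 to 10.4 CPM. AntagomiR-29a replicate 3 stood at 135 CPM for Nfu_g_1_013791, above 8.93 to 42.8 CPM. What made these libraries differ was not tested.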

How the results depend on the processing

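Of the 200 members, 172 to 200 were chosen again with TMM or DESeq2 scaling, a pseudocount of 5, the most abundant genes kept, no minimum per library or length trends removed, and 175 to 184 without 1 library. With the SD taken relative to its trend on expression 154 were, and with the median absolute deviation 132, a statistic that does not respond to 1 or 2 extreme libraries. The largest set held 77 to 81 members under every alternative tried. Members called numbered 0 in each alternative fit by edgeR, DESeq2 or limma-voom and at an adjusted p limit of 0.1. An unadjusted p under 0.05 was found for 4 to 18 members, where 707 to 1408 of all genes had one. These ranges do not pair fit by fit. The fits did not all test the same number of genes, and shares were not computed for the alternatives. The 4 came without antagomiR-29a replicate 3, where 972 of all genes had one. The 18 came with title numbers as a replicate block, where 707 did. The members' lowest adjusted p-values in these edgeR, DESeq2 or limma-voom fits ran from 0.293 to 0.9995. Over all genes, the 9 calls became 73 with DESeq2, 18 at the limit of 0.1 and 0 to 8 without 1 library (0 without control replicate 1 or 3 or antagomiR-29a replicate 1 or 5, 1 without control replicate 2, 3 without control replicate 4 or 5 or antagomiR-29a replicate 3, and 4 without antagomiR-29a replicate 4). With title numbers as a replicate block, 0 genes were called over all genes and 0 among members, with 707 and 18 at an unadjusted edgeR p under 0.05. The labels do not say that title numbers pair samples, so they were not treated as pairs. Only 4 numbers occur in both groups, and their samples' deviations correlated at -0.003, -0.42, -0.02 and -0.11 over eligible genes. Samples with differing numbers correlated at -0.35 to 0.39, so these values do not settle whether samples are paired. The cause of the changes in calls was not tested. The fitted fold change of Nfu_g_1_014206 ran from 0.23 to 3.18 and that of Nfu_g_1_012737 from -2.84 to 0.26 over the alternatives, none called. For Nfu_g_1_012737 the alternatives leave out DESeq2, which gave it no p. Removing length trends and choosing members in 1 group alone were added after seeing the data. Depth limits the lowest values most, since members had as few as 22 counts, though counting error was at most 3.20% of a member's within-group variance.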

Other observations

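Some members lay side by side in the deposited table. There were 6 pairs of members in neighbouring rows, so that 12 members, or 6.0%, had a member next to them, where 161 of the other eligible genes, or 1.37%, had one. In 5 of the 6 pairs the within-group correlation was above 0.9 and both genes were in the same set, and in the sixth it was -0.56. The highest, 0.995, was that of Nfu_g_1_020700 and Nfu_g_1_020705. Nfu_g_1_020700 had 58.9, 20.2, 18.9, 52.9 and 44.0 CPM across the controls, then 84.0, 48.4, 55.6, 55.5 and 12.4 CPM across the antagomiR-29a libraries. Nfu_g_1_020705 followed at a lower level, with 19.2, 7.21, 6.63, 16.3 and 14.7 CPM across the controls, then 29.4, 14.9, 19.4, 20.4 and 4.87 CPM across the antagomiR-29a libraries. Whether the row order follows the genome was not tested.

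A gap of over 1 log2 unit between neighbouring libraries in the order of levels was found for 51 members, of 62 eligible genes with such a gap, and a gap of over 2 log2 units for 11 members, which were all of the eligible genes with one. Of the 51, the gap set apart 1 high library in 11 members, 1 low library in 8, and at least 2 libraries on either side in 32. The gap is part of the spread that chose the members, so these counts are a description.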
